A study of Mus musculus with 15 samples.

Results

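The nucleoporin genes, which encode the proteins of the nuclear pore complex, were examined in bulk RNA sequencing of mouse gastrocnemius, the large calf muscle. They were 30 genes taken by name, each matched by its symbol to 1 of the 55450 genes in the count table, and each passed the filter on low counts that left 16920 genes for testing. The mice were female C57BL/6JN animals older than 17 months, with no engineered allele named in the labels, and they were sorted by performance tests, body weight and a clinical index into Low mice, with at most 1 marker of frailty, and High mice, with at least 2. Low Control (n = 4) and High Control (n = 3) mice stayed sedentary in their cages, while Low Run (n = 4) and High Run (n = 4) mice ran downhill in 2 bouts on a treadmill with a 22° decline at 13 m/min and gave tissue 24 h later. The labels call the Low mice robust and the High mice frail. Cut-offs for the markers were set within this cohort, and all of the mice were old, so the design holds no young muscle. Each library came from a portion of 1 powdered muscle of 1 mouse, with totals of 19395125 to 30699216 counts (median 25926420). A lower value in such a bulk sample may mean fewer cells of a type or less RNA per cell, which cannot be told apart.

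The nuclear pore complex is the gate between nucleus and cytoplasm. Y-shaped complexes form its outer rings, an inner ring lines the pore, membrane proteins anchor it in the nuclear envelope, and proteins rich in phenylalanine-glycine repeats fill the channel through which importins and exportins carry cargo. On the cytoplasmic face RANBP2, a SUMO E3 ligase, holds RANGAP1, which is modified by SUMO, so that these genes also fill many gene sets on SUMOylation. In muscle fibers, which hold many nuclei that no longer divide, scaffold nucleoporins are known for long protein lifetimes. The genes were grouped by position into the outer ring (9), inner ring (5), membrane anchors (3), central channel (3), cytoplasmic side (7) and nuclear basket (3).

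Promoter windows of 300 bases, from 250 before to 50 after the start of a RefSeq transcript, were found for 26 of the 30 genes, with 29 windows in all. They are described because the genes were examined as a group that might move together. Of these windows, 86.2% were rich in CpG (an observed to expected ratio of at least 0.6 with GC of at least 50%), as against 33.5% of the 32851 windows of all genes. The median GC content was 63.7%, as against 52.7%. Windows of 4 members are printed 5′ to 3′ on the strand of the gene (GRCm38.p6), with capitals on the matches, on either strand, to the palindromic NRF1 motif, to the ETS core CCGGAAG, to the YY1 motif AAGATGGCG, to the GC box GGGCGG and to the TATA box TATAAA. Nup107 is shown as a window with both the NRF1 motif and the ETS core, Nup188 and Ranbp2 because they had the smallest p-values for the Frailty × Run interaction, and Nup210 because it had the smallest p-value in Low mice.
Nup107, chr10:117792656-117792955, minus strand: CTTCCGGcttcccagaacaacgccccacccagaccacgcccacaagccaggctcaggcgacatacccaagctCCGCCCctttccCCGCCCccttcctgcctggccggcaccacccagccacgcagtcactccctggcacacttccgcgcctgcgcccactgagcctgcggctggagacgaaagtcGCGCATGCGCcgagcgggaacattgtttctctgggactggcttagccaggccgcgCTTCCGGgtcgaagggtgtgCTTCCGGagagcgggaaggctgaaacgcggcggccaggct
Nup188, chr2:30286166-30286465, plus strand: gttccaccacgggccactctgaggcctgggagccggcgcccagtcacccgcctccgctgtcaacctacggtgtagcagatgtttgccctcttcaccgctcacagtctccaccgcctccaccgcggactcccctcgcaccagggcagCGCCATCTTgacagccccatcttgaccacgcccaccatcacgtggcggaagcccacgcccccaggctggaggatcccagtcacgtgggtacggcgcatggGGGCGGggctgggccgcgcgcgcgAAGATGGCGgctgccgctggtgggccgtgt
Nup210, chr6:91116777-91117076, minus strand: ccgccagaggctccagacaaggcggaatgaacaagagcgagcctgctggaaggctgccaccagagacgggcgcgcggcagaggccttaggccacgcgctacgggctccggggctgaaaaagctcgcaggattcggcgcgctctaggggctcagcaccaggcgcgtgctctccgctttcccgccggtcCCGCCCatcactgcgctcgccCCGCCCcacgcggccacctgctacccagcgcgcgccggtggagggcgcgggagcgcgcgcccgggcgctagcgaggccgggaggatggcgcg
Ranbp2, chr10:58446602-58446901, plus strand: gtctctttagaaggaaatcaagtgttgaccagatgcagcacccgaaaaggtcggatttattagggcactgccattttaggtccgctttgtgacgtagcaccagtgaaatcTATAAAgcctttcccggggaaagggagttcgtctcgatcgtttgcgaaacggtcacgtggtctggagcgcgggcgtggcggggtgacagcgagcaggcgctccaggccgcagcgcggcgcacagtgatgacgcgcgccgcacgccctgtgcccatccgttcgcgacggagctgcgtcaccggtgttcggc

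The ETS core was found in 9 of the 29 windows (31%, as against 8.86% of all windows). They were windows of Nup107, Sec13, Nup37, Aaas, Gle1, Nup155, Nup54 and Rae1. For Nup37, overlapping windows that share the same matches were both counted, here and among the CpG-rich windows. The NRF1 motif was found in 3 windows (10.3%, as against 0.971%), those of Nup107, Nup50 and Nup62, and the YY1 motif in 4 (13.8%, as against 1.4%). Since most windows were rich in CpG, the shares were also taken among the 25 that were, beside the 10995 of all genes. These were 36.0% as against 19.2% for the ETS core, 12.0% as against 2.51% for the NRF1 motif and 16.0% as against 3.47% for the YY1 motif. The GC box was found in 72.0% of the CpG-rich windows, as against 75.8%. Over all windows TATAAA was found in 10.3% (as against 13.6%), CCAAT in 37.9% (as against 37.4%), TGACGTCA in 6.9% (as against 1.79%), the E-box CAGCTG in 3.45% (as against 16.3%) and the MEF2 motif in 0% (as against 0.164%). No matches to different motifs overlapped among the 83 in these windows, and a match is a run of letters, not a bound site.

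All members were expressed in every mouse, with 44 to 6084 counts per gene and mouse. Levels were compared between genes per length, in RPKM, which scales counts to exon length and library size, and 23 of the 30 lay above the median tested gene. Sec13, which encodes a β-propeller protein shared by the outer ring and by COPII vesicle coats, had the highest median (19.8 RPKM over 15 mice, the 88.4th percentile of the tested genes). It was followed by Nup62 of the central channel (13.1) and by Tpr, the large coiled-coil protein of the basket (12.4). The lowest were Nup35 of the inner ring (0.685, the 27.5th percentile) and Nup160 of the outer ring (0.823). The members of the inner ring ran from 0.685 to 4.24 RPKM and those of the cytoplasmic side from 2.46 to 9.41, so that transcript levels were unequal within subcomplexes. Aside from 1 Low Control mouse described next, the coefficient of variation of a member over the 14 mice ran from 6.11% (Nup85) to 22.1% (Nup188), with a median of 13.3%.

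**Figure D1:**
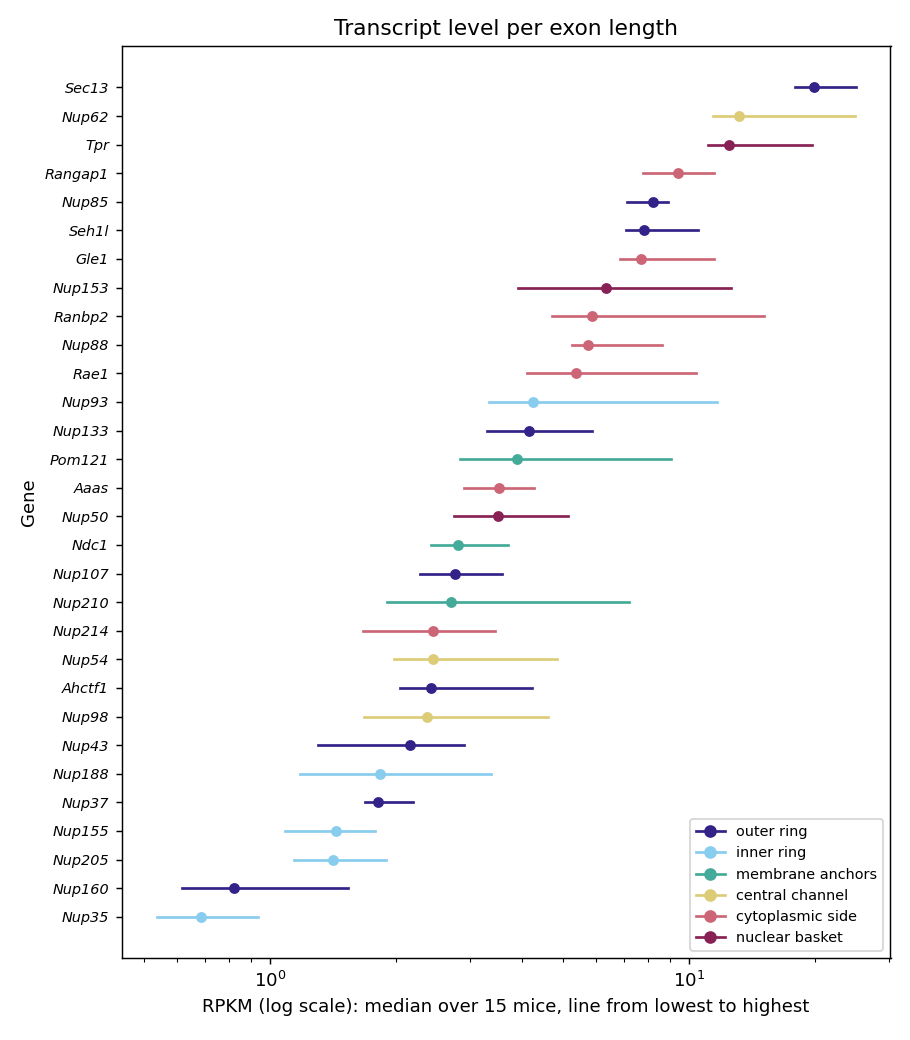
Level of each of the 30 nucleoporin genes in RPKM on a log axis. The point is the median over 15 mice, the line runs from the lowest to the highest mouse, and colors give the position in the pore. Sec13 lies highest at 19.8 RPKM and Nup35 lowest at 0.685, and Ranbp2, Nup93 and Nup210 have long lines toward high values.

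One Low Control mouse, D9, stood apart before any groups were compared. It was the highest of the 15 mice in 21 of the 30 members, as against 22.7% of all tested genes, and lay above each of the other 3 Low Control mice in 25. Its fold over the median of the other Low Control mice ran from 0.966 (Nup43) to 2.48 (Nup93) with a median of 1.44, while the median over all tested genes was 0.991. The membrane anchors had a median fold of 2.20 and the central channel 1.86, the outer ring 1.34. Summed over the 30 genes, D9 reached 1436.5 CPM (library-scaled counts), the other Low Control mice 891.1 to 914.6, Low Run mice 812.2 to 882.6, High Control mice 827.7 to 871.3 and High Run mice 782.1 to 1010.2. The High Run mouse D62 was the second highest. Most counts and medians that rest on Low Control mice are therefore given with and without D9, and most of those of High Run against High Control mice with and without D62.

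**Figure D2:**
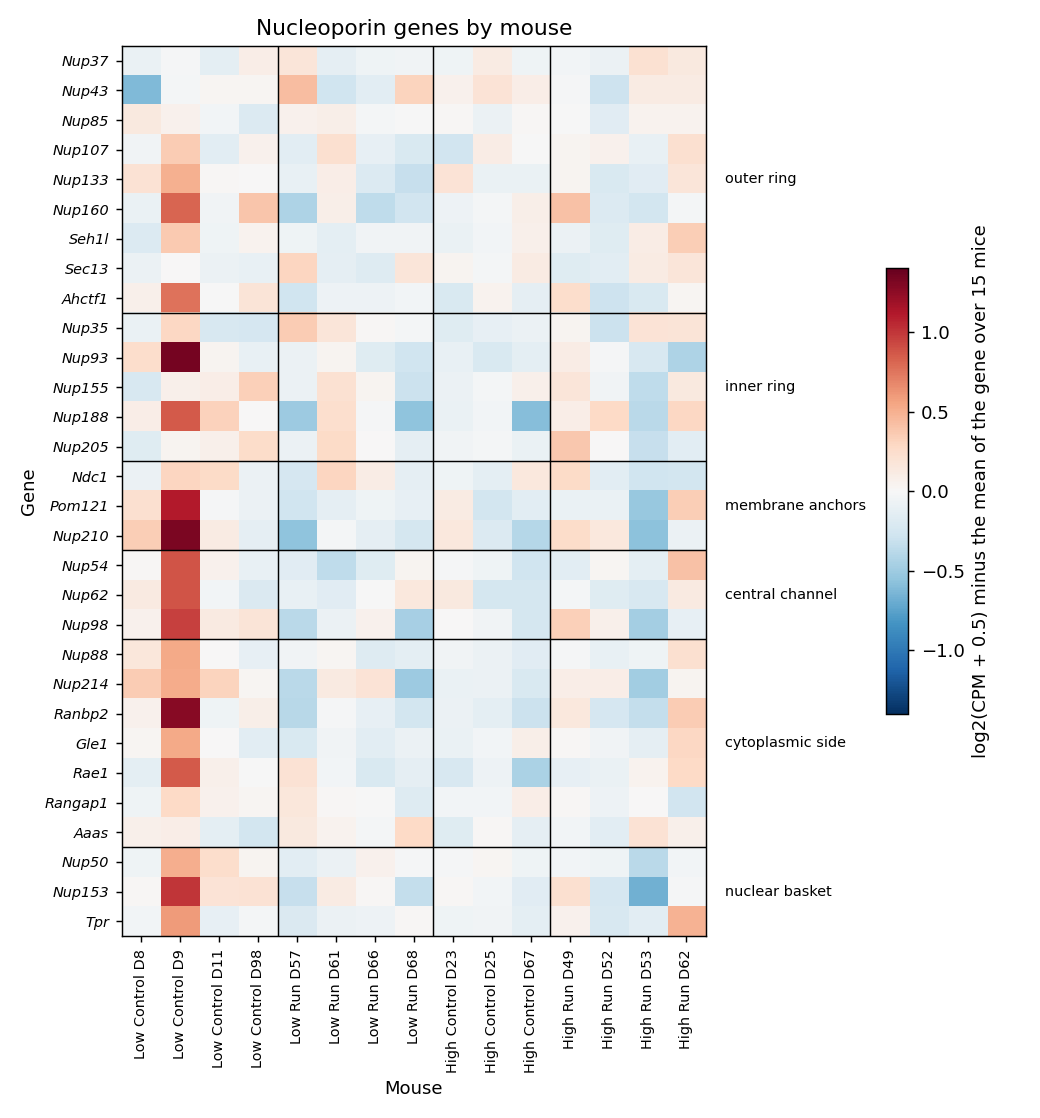
Heat map of the 30 nucleoporin genes (rows, by position in the pore) in the 15 mice (columns, by group). Color gives log2(CPM + 0.5) minus the mean of the gene over all mice. In Low Control mouse D9, 29 of the 30 genes lay above their median over mice, and in the other mice 7 to 21 did.

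Other measures also moved with D9. The members are long transcripts, with a median exon length of 5.25 kb as against 3.83 kb for the tested genes, and 21 of 30 were longer than the median gene. The mean log2 deviation of the longest genes minus that of the shortest (the upper and lower quartiles by exon length) was 0.29 in D9, the highest of the 15 mice, and -0.30 in Low Run D57, -0.29 in Low Run D68 and -0.33 in High Run D53. The members' median deviation was 0.52 in D9, -0.13 in D57, -0.12 in D68 and -0.19 in D53. D62 had a length measure of -0.07 and a median deviation of 0.13. High Run D49 had 0.22 and 0.04, and Low Control D98 had 0.12 and 0.007. The 8 muscle fiber markers, all detected in every mouse, summed to 121510 CPM in D9, the lowest of the Low Control mice (124693 to 170578 in the other 3), and to 106356 in D62, the lowest of all. Over the groups that sum ran from 121264 to 147204 CPM in Low Run, 141660 to 164498 in High Control and 106356 to 137774 in High Run mice. The 4 markers of endothelium summed to 156.4 to 243.1 CPM over the 15 mice and the 5 of macrophages to 35.4 to 119.1, and D9 had 229.5 and 45.1. Schwann cell markers (3 genes) were highest in D62 at 276.8 CPM (58.9 to 172.3 in the other mice), as were satellite cell markers (3 genes) at 74.5 CPM (33.8 to 49.3). The 4 fibroblast markers summed to 673.6 CPM in D9 and 540.9 to 1175.4 elsewhere. Of these, the collagen genes Col1a1 and Col3a1 were lowest of all mice in D9, at 13.3 and 12.5 CPM. They were second lowest in D62, at 24.3 and 19.6 CPM. The others lay within the range of Low Control mice in D9, with Dcn at 623 CPM (472 to 692 in the other 3) and Pdgfra at 24.8 (24.2 to 29.1). In D62 Dcn and Pdgfra measured 481 and 16.6 CPM. The 3 adipocyte markers summed to 55.9 CPM in D9, 71.1 to 75.5 in the other Low Control mice and 36.4 to 53.9 in Low Run mice. These sums did not overlap between the groups, though of the 3 genes only Cidec was without overlap (3.59% of tested genes were lower in this way). In D9 Adipoq and Plin1 measured 12.4 and 13.3 CPM, within the ranges of Low Run mice (10.8 to 19.5 and 12.6 to 16.8). The 3 neutrophil markers reached 321.6 CPM in Low Run D68 and 1.29 to 46.8 elsewhere, with 2 of them detected in every Low Run mouse. The 2 T cell markers summed to 0.270 to 0.398 CPM in Low Control, 0.251 to 6.31 in Low Run, 0.0369 to 0.270 in High Control and 0.453 to 1.01 in High Run mice. The part of gene length or of other cells in the results on nucleoporins was not tested through these sums, whereas offsets for length and GC and the omission of single mice were measured and are given beside the results.

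**Figure D3:**
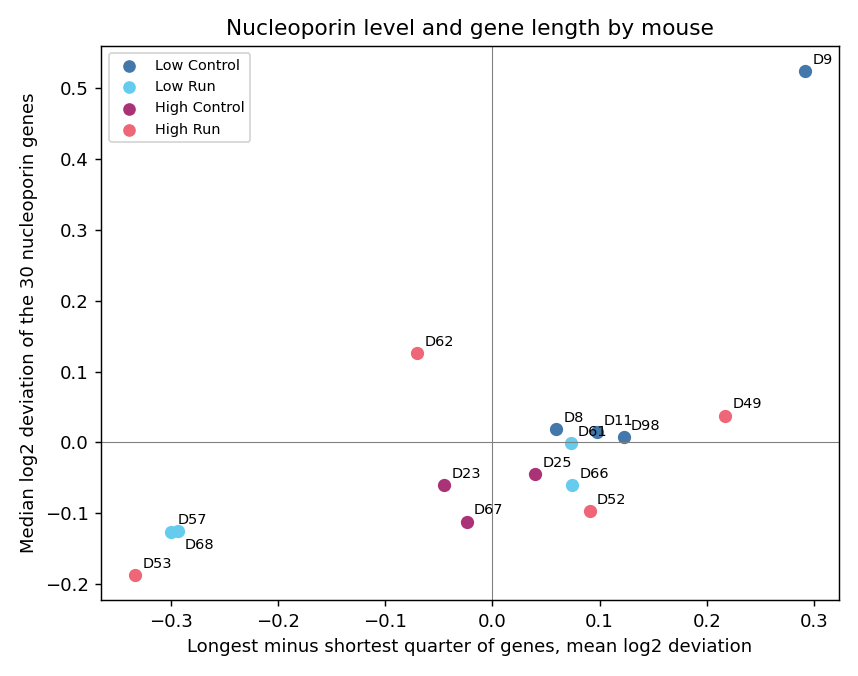
Each point is a mouse, colored by group. The x axis gives the mean log2 deviation of the upper length quartile of tested genes minus that of the lower, and the y axis the median log2 deviation of the 30 nucleoporin genes. D9 lies at the upper right (0.29 and 0.52), whereas D57, D68 and D53 lie at the lower left. D49 lies to the right as well, at 0.22 and 0.04.

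In Low mice, 24 of the 30 nucleoporin genes were lower after running and 6 were higher, and none was past an FDR of 0.1 by the quasi-likelihood test of edgeR. The same held for all tested genes (0 of 16920, or 0%), and the smallest adjusted p of a member was 0.358. At an unadjusted p under 0.05, 11 members were lower and 0 were higher, in a background of 7.52% of tested genes lower and 5.92% higher. They were Nup210, Nup98, Nup160, Ranbp2, Nup93, Nup214, Nup153, Ahctf1, Nup188, Pom121 and Nup133. The median log2 fold change of the members was -0.25, as against 0.016 over all tested genes. Only Ahctf1 and Nup98 had groups that did not overlap, both lower in Low Run, where 3.59% of tested genes did so. Without D9, 24 members were again lower and the median was -0.10. There 0 members had a p under 0.05 in either direction (2.4% of tested genes lower and 2.63% higher). Between the same groups the adipocyte marker Cidec had a log2 fold change of -1.04, and the T cell markers Cd3e and Cd3g each had 2.75, with Low Run D61 the highest in both (edgeR, adjusted p = 0.358 for all 3). Their part in the difference of the nucleoporin genes was not tested. With offsets for gene length and GC and all mice kept, 9 members were lower at that threshold and the median was -0.21, and with both the offsets and D9 left out the count was 0 and the median -0.06.

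By position, all 3 membrane anchors, all 3 channel genes and all 3 basket genes were lower in Low Run, with medians of -0.55, -0.45 and -0.25 on the log2 scale. The cytoplasmic side had 6 of 7 lower (median -0.25), the inner ring 4 of 5 (median -0.11) and the outer ring 5 of 9 (median -0.12). Without D9 the medians were -0.20 for the anchors, -0.17 for the channel, -0.13 for the basket, -0.10 for the cytoplasmic side, -0.12 for the inner ring and -0.02 for the outer ring. The 11 members had a median exon length of 8.76 kb, as against 3.85 kb for the other 19, and D9 exceeded the median of the other Low Control mice in each of them, by 1.16- to 2.48-fold. All 11 were still lower without D9, with unadjusted p-values from edgeR of 0.0738 upward, and 24 of all 30 members were lower there. The 11 were picked in a fit of the same mice with D9 included. Their folds in D9 and their directions without it are therefore no separate support.

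Nup210 (ENSMUSG00000030091, chr6:91013068-91116829, minus strand), a transmembrane nucleoporin known for a part in muscle differentiation, had the smallest p. It measured 38.4, 75.3, 32.5 and 27.4 CPM in the Low Control mice D8, D9, D11 and D98. In Low Run mice D57, D61, D66 and D68 it measured 20.2, 29.5, 27.4 and 25.3 CPM. Apart from D9, 2 Low Control mice lay above all Low Run mice and D98 lay among them. The log2 fold change was -0.76 ± 0.27 (SE) with all mice and -0.36 without D9 (edgeR, unadjusted p = 0.0137 and 0.0971).

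Nup98 (ENSMUSG00000063550, chr7:102119398-102210176, minus strand) encodes a channel protein that also binds RAE1 in mRNA export. It measured 30.98, 58.0, 32.5 and 33.7 CPM in Low Control and 22.8, 28.1, 30.9 and 21.4 CPM in Low Run mice. The groups did not overlap, though D8 at 30.98 and D66 at 30.9 nearly met. Leaving out D9 could not have changed this, since separate groups cannot come to overlap with fewer mice. Its log2 fold change was -0.59 ± 0.21 (SE) with all mice and -0.34 without D9 (edgeR, unadjusted p = 0.0143 and 0.0778).

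Ranbp2 (ENSMUSG00000003226, chr10:58446920-58494356, plus strand), the SUMO E3 ligase of the cytoplasmic filaments, measured 76.0, 177, 69.8 and 77.0 CPM in Low Control mice. In Low Run mice it measured 55.2, 71.7, 67.01 and 60.7 CPM. D9 stood far above the other Low Control mice, and D61 lay above D11. Its log2 fold change was -0.65 ± 0.25 (SE) and -0.23 without D9 (edgeR, unadjusted p = 0.0217 and 0.171).

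Nup93 (ENSMUSG00000032939, chr8:94214564-94317227, plus strand), the scaffold that links the inner ring to the channel, measured 23.1, 49.7, 20.0 and 18.03 CPM in Low Control mice. It measured 18.3, 19.9, 17.1 and 15.8 CPM in Low Run mice. Apart from D9 the groups overlapped at 18 to 20 CPM. The log2 fold change was -0.64 ± 0.25 (SE) and, without D9, -0.21 (edgeR, unadjusted p = 0.0228 and 0.176).

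Nup160 (ENSMUSG00000051329, chr2:90677215-90736328, plus strand), which encodes a protein of the Y complex, measured 6.94, 13.5, 7.21 and 9.92 CPM in Low Control mice. It measured 5.42, 7.93, 5.71 and 6.12 CPM in Low Run mice, where D61 lay above D8 and D11. Its log2 fold change was -0.57 ± 0.22 (SE) and -0.36 without D9 (edgeR, unadjusted p = 0.0193 and 0.0946).

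**Figure D4:**
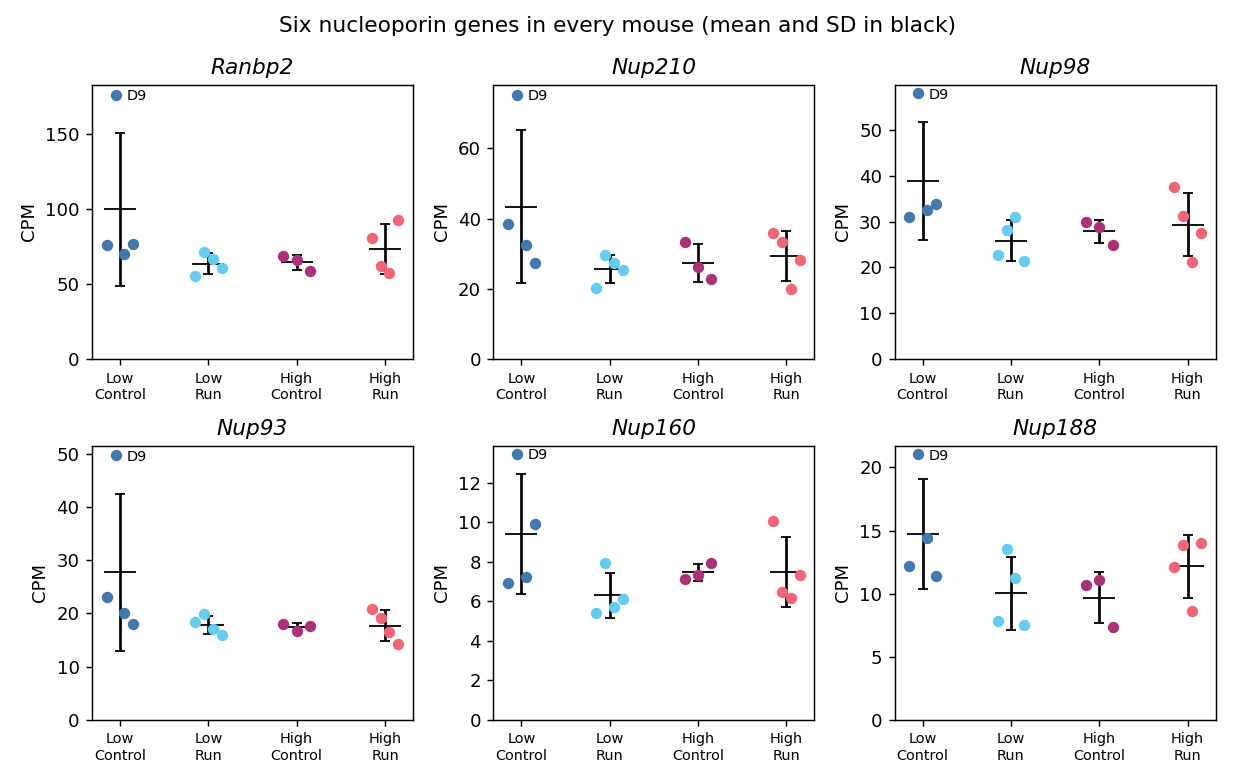
CPM of 6 nucleoporin genes in every mouse, by group, with the mean and SD in black and y axes from 0. D9 is the highest point in each panel, at 177 CPM for Ranbp2 and 75.3 for Nup210. With or without D9, Low Control mice lie above all Low Run mice for Nup98 (3.59% of tested genes with all mice). They lie above all High Control mice for Nup98, Ranbp2 and Nup188 (5.27%). In the other comparisons of groups the mice overlap.

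The 6 members that ran the other way in Low mice had log2 fold changes up to 0.25 with all mice. Nup35 of the inner ring had a log2 fold change of 0.23 ± 0.21 (SE, edgeR, adjusted p = 0.605). It measured 2.17, 2.98, 1.95 and 1.93 CPM in Low Control and 3.15, 2.702, 2.39 and 2.31 CPM in Low Run mice, so that D9 was high here too. Without D9 its groups did not overlap (4.15% of tested genes were higher in this way and 4.42% lower, the latter with Ahctf1 and Nup98) and the change was 0.38. Nup43, a β-propeller protein of the Y complex, had 0.25 ± 0.21, Aaas, named for triple A syndrome, 0.17 ± 0.14, and Sec13 0.12 ± 0.13 (log2 fold change ± SE). Sec13 measured 60.8, 64.4, 60.8 and 60.1 CPM in Low Control and 79.4, 59.1, 56.8 and 72.2 CPM in Low Run mice. D57 and D68, the Low Run mice with the lowest length measure, were the high ones, and at 3.18 kb Sec13 is among the shorter members. High Run D53 (69.6 CPM, length measure -0.33), High Run D62 (72.5 CPM, -0.07) and High Control D67 (69.9 CPM, -0.02) were also high. The part of gene length was not tested. Nup37 and Nup85 of the outer ring had changes of 0.02 and 0.03. All other members not named above (Nup107, Seh1l, Nup155, Nup205, Ndc1, Nup54, Nup62, Nup88, Gle1, Rae1, Rangap1, Nup50 and Tpr) had log2 fold changes between -0.45 (Nup54) and -0.04 (Nup205) with unadjusted p-values from 0.0537 upward.

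**Figure D5:**
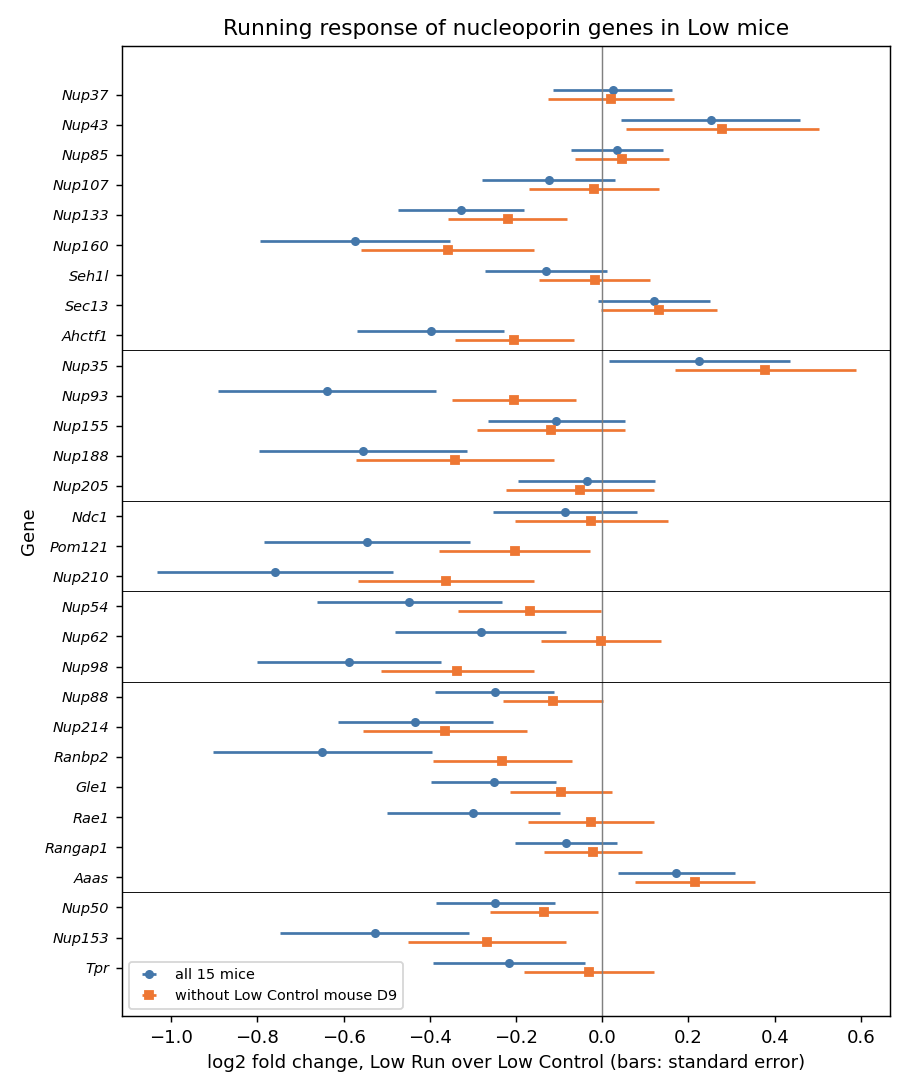
Log2 fold change of Low Run over Low Control for each nucleoporin gene (y axis, by position in the pore), with all 15 mice (blue circles) and without Low Control mouse D9 (orange squares). Bars are standard errors. Most blue points lie below 0 and most orange points lie nearer to 0, with Nup210 going from -0.76 to -0.36.

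In High mice the nucleoporin genes lay close to the bulk of all genes. Of the 30 members 21 were higher in High Run than in High Control and 9 were lower, and 0 were past an FDR of 0.1 (0% of tested genes) or an unadjusted p under 0.05 (3.28% of tested genes higher and 1.9% lower). The smallest adjusted p of a member was 0.958 in edgeR. In 0 members were the groups without overlap (3.47% higher and 3.6% lower over all genes). The median log2 fold change was 0.056, close to the 0.047 of all tested genes, and without D62 it was 0.015 with 16 higher and 14 lower. With offsets for length and GC it was -0.0025. By position the medians were 0.11 for the cytoplasmic side, 0.07 for the channel, 0.06 for the inner ring, 0.03 for the anchors, 0.01 for the outer ring and -0.08 for the basket. Without D62 they were 0.04, 0.03, 0.10, -0.03, -0.03 and -0.13 in the same order, so that the anchors and the outer ring changed sign.

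The 5 members with the smallest p-values in High mice all had positive changes, with 95% intervals that include 0. Rae1 (ENSMUSG00000027509, chr2:173000117-173015739, plus strand), the mRNA export factor, measured 12.3, 13.7 and 10.48 CPM in the High Control mice D23, D25 and D67. It measured 13.3, 13.5, 14.9 and 17.6 CPM in the High Run mice D49, D52, D53 and D62. D25 lay above D49 and D52, and the log2 fold change was 0.28 ± 0.22 (SE, edgeR, unadjusted p = 0.211), or 0.18 without D62.

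Nup188 (ENSMUSG00000052533, chr2:30286397-30344266, plus strand), a large inner ring scaffold, measured 10.7, 11.0 and 7.37 CPM in High Control and 12.1, 13.9, 8.63 and 14.0 CPM in High Run mice. Of the High Run mice 3 lay above all High Control mice and D53 did not. Its log2 fold change was 0.33 ± 0.26 (SE, edgeR, unadjusted p = 0.231), or 0.24 without D62. For 4.55% of its exon length another gene model, Gm28038, lies on the same strand, and Nup35 shares 3.89% with Dusp19, Nup62 3.4% with Il4i1 and Ahctf1 1.03% with Kif28.

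Aaas (ENSMUSG00000036678, chr15:102338252-102350771, minus strand) measured 8.61, 9.86 and 8.90 CPM in High Control and 9.51, 8.80, 11.3 and 10.3 CPM in High Run mice. Nup35 (ENSMUSG00000026999, chr2:80617236-80658906, plus strand) measured 2.05, 2.14 and 2.20 CPM in High Control and 2.43, 1.81, 2.75 and 2.74 CPM in High Run mice. Their log2 fold changes were 0.13 ± 0.15 and 0.19 ± 0.23 (SE), or 0.11 and 0.12 without D62. Tpr (ENSMUSG00000006005, chr1:150392838-150449935, plus strand) measured 130.3, 132 and 124 CPM in High Control and 142, 116, 123 and 192 CPM in High Run mice. D62 was the highest of these mice, and the log2 fold change of 0.16 ± 0.19 (SE) became -0.02 without it.

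The Frailty × Run interaction asks whether running moved a gene differently in High and in Low mice. It was positive, meaning a higher response in High mice, for 25 of 30 members, with a median log2 value of 0.31, as against 0.03 over all tested genes. At an FDR of 0.1 there were 0 members and 0 of 16920 genes (0%). At an unadjusted p under 0.05, 3 members were positive (5.24% of tested genes) and 0 negative (2.69%). The members were Nup188 (0.88 ± 0.36), Ranbp2 (0.83 ± 0.38) and Nup210 (0.86 ± 0.40), as log2 ± SE, and their edgeR adjusted p was 0.5997. Without D9 the values were 0.66, 0.41 and 0.46, and 23 members were positive, with a median of 0.16. There 0 members had a p under 0.05 (2.85% of tested genes positive and 1.82% negative). Without D62 alone the median was 0.21 and 1 member, Nup188, had such a p, and with both mice left out the median was 0.060 and 20 members were positive. In all, 18 of 30 members were lower in Low Run and higher in High Run than in their controls, as were 28.8% of tested genes. Of the rest, 6 were lower in both, 3 higher in both and 3 higher in Low and lower in High. These counts were taken with all mice only.

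Nup98 and Nup54, which both encode channel proteins, came next, with interaction values of 0.66 ± 0.31 and 0.63 ± 0.32 (log2 ± SE). Nup98 measured 29.8, 28.7 and 24.9 CPM in High Control and 37.5, 31.2, 21.2 and 27.4 CPM in High Run mice. Nup54 (ENSMUSG00000034826, chr5:92415540-92435219, minus strand) measured 8.68, 16.1, 8.93 and 7.95 CPM in Low Control and 7.61, 6.59, 7.54 and 8.82 CPM in Low Run mice. Among High mice Nup54 measured 8.42, 8.16 and 6.94 CPM in High Control and 7.66, 8.70, 7.76 and 11.5 CPM in High Run mice. For Nup54 the high mice were D9 and D62, and the other 13 lay between 6.59 and 8.93 CPM. Ranbp2 measured 68.8, 66.02 and 58.7 CPM in High Control and 80.5, 61.8, 57.4 and 93.0 CPM in High Run mice. Nup210 measured 33.4, 26.2 and 22.7 CPM in High Control and 35.9, 33.4, 20.0 and 28.3 CPM in High Run mice. Nup188 measured 12.2, 21.03, 14.4 and 11.4 CPM in Low Control and 7.82, 13.5, 11.3 and 7.52 CPM in Low Run mice. D57 and D68, with their low length measures, were the low Low Run mice for Nup188. High Control D67, with a length measure of -0.02, was lower still at 7.37 CPM. In each of these genes the groups of High mice overlapped.

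Between sedentary mice, which show frailty without running, 27 of 30 members were lower in High Control than in Low Control and 3 were higher. Again 0 members and 0% of tested genes were past an FDR of 0.1, and the smallest adjusted p of a member was 0.704 in edgeR. At an unadjusted p under 0.05, 6 members were lower (4.06% of tested genes) and 0 higher (1.8%), namely Nup93, Nup214, Rae1, Nup188, Ranbp2 and Nup210. The median log2 fold change was -0.22, as against -0.02 over all tested genes. The groups did not overlap in 5 members that were lower, Nup188, Nup98, Nup214, Ranbp2 and Nup153 (5.27% of tested genes), and in 1 that was higher, Nup43 (5.13%). This comparison uses the same Low Control mice as the one on running. Without D9, 22 members were lower and 8 higher, and 0 had a p under 0.05 (1.75% of tested genes lower and 0.879% higher). The median was then -0.11. Groups without overlap cannot come to overlap when a mouse is left out, so the same 5 members stayed lower in this way (7.23% of tested genes). Nup43 and Sec13 were higher without overlap (6.67%).

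Nup214 (ENSMUSG00000001855, chr2:31974436-32053975, plus strand), the filament protein that with NUP88 docks export complexes, moved least of these 6 when D9 was left out. It measured 29.7, 33.3, 28.7 and 23.5 CPM in Low Control and 21.5, 21.7 and 19.8 CPM in High Control mice. Its log2 fold change between these groups was -0.45 ± 0.20 (SE) and -0.38 without D9 (edgeR, unadjusted p = 0.0342 and 0.0794). In Low Run mice it measured 17.6, 25.2, 26.3 and 16.1 CPM, and in High Run mice 24.6, 24.6, 16.3 and 23.7 CPM. The mice with the lowest values were D57, D68 and D53, which had the lowest length measures. High Run D49, with a measure of 0.22, had 24.6 CPM, below Low Control D8 at 29.7 CPM with 0.06. The part of gene length was not tested.

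Nup93 measured 18.03, 16.7 and 17.6 CPM in High Control mice, where its log2 fold change from Low Control was -0.67 ± 0.28 (SE) with all mice and -0.23 without D9. In High Run mice it measured 20.8, 19.1, 16.6 and 14.2 CPM, and here D62 was the lowest of all 15 mice. Rae1 measured 13.1, 26.5, 15.2 and 14.3 CPM in Low Control and 16.6, 14.0, 12.4 and 13.1 CPM in Low Run mice. Its log2 fold change between control groups was -0.51 ± 0.22 (SE) and -0.23 without D9. Outside D9 no mouse had more than 17.6 CPM.

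Between running mice, High Run and Low Run, the members had small differences in both directions. Of the 30, 18 were higher and 12 lower in High Run, 0 were past an FDR of 0.1 (0% of tested genes) or an unadjusted p under 0.05 (1.52% higher, 0.987% lower), and 0 were without overlap (0.721% higher, 0.774% lower). The median log2 fold change was 0.074, or 0.017 without D62. The values ran from -0.13 (Nup43) to 0.28 (Nup188), and neither running group includes D9.

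Genes that work with the pore were counted in the same fits. Of 16 importins, the carriers that bring cargo in, 14 were lower in Low Run than in Low Control and 6 had an unadjusted p under 0.05 (7.52% of tested genes), with a median log2 fold change of -0.28. Of 7 exportins 6 were lower and 2 had such a p (median -0.35). Kpna1, an importin α, had -0.35 ± 0.14, Ipo9 -0.41 ± 0.16 and Xpo7 -0.41 ± 0.15 (log2 fold change ± SE). For each of these, named after their values were seen, the 2 groups did not overlap. In all, 4 of 16 importins and 2 of 7 exportins were lower without overlap, as were 3.59% of tested genes. Leaving out D9 cannot undo such a gap between groups, and the counts stayed at 4 and 2 (4.42% of tested genes). Without D9, 0 importins and 0 exportins had a p under 0.05, and the medians were -0.16 and -0.22. Of 6 genes of the Ran cycle, which gives transport its direction, 4 were higher, 0 at p under 0.05, with a median of 0.12, or 0.09 without D9. Of 12 genes of mRNA export 10 were lower, 0 at p under 0.05 (median -0.11, or -0.04 without D9, when Thoc5 alone was higher at that threshold). Of 11 genes of the lamina and of the LINC complex, which ties the nucleus to the cytoskeleton, 8 were lower. Of these, 3 had a p under 0.05 (7.52% of tested genes lower), and 1 gene, Emd, was higher at that threshold (5.92%). The median was -0.20, or -0.18 without D9, when Emd alone remained past the threshold (2.63% of tested genes higher). Emd measured 67.5 CPM in Low Run D68, 26.8 to 37.7 in the other Low Run mice and 25.6 to 34.3 in Low Control mice. Sun2 and Syne1, which reach across the nuclear envelope, had -0.69 ± 0.25 and -0.81 ± 0.35. Emd encodes emerin and shares 13.6% of its exon length with another gene model on the same strand, and Ipo4 shares 55.3%. None of these genes was past an FDR of 0.1.

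In High mice the same lists had medians of 0.03 (importins), 0.09 (exportins), -0.14 (Ran cycle), 0.08 (mRNA export) and 0.07 (lamina and LINC) on the log2 scale. There 1 of their genes, from mRNA export, was higher at an unadjusted p under 0.05 (3.28% of tested genes) and 0 were lower. Without D62 that count was 0 for each list, and the medians were -0.08 (importins, with 4 of 16 higher in place of 9), 0.08 (exportins), -0.08 (Ran cycle), 0.03 (mRNA export) and 0.07 (lamina and LINC). For the interaction, 13 of 16 importins and 7 of 7 exportins were positive, with medians of 0.27 and 0.42, and 0 of them had a p under 0.05. Without D9 these medians were 0.15 and 0.21. In the Ran cycle 5 of 6 were negative (median -0.20). At p under 0.05, 1 of 12 genes of mRNA export and 1 of 11 of the lamina list were positive (5.24% of tested genes). These counts were also 1 and 1 without D9 alone (2.85% of tested genes) and without D62 alone. With both mice left out they were 0 and 0. Between sedentary mice 15 of 16 importins and 7 of 7 exportins were lower in High Control, with medians of -0.21 and -0.28, or -0.08 and -0.12 without D9. Of 4 more pore genes only Nup42 was tested, with a log2 fold change of -0.01 ± 0.21 (SE) in Low mice and 0.29 ± 0.22 in High mice, where D62 had the highest count and the value without it was -0.00066. Nup58, Nup210l and Nup62cl had too few counts, and Nup58 had at most 1 count in a mouse, with 55.4% of its exon length shared with other gene models on its strand. Its level is therefore uncertain.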

How the data were processed

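RNA from the gastrocnemius of 15 mice was sequenced. Per the submitters' processing notes and the study's methods, the authors used STAR 2.7.9a for alignment (build mm10) and featureCounts of Subread for counting against Ensembl annotation. The deposited counts are whole numbers, without normalization, of properly paired reads with 1 alignment, per gene outside the mitochondrial genome. The notes give Subread as 2.0.3, and the study's methods give another version. The deposited table of variance-stabilized values was not used here. Groups came from the labels, each mouse being a separate animal, and replicates differed by more than sampling noise (chi-square per degree of freedom 15.7 to 191). No column was left out (0).

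Gene names, coordinates and exon lengths came from GENCODE M21 on GRCm38, which matched 55104 of 55450 genes. Counts were filtered with filterByExpr, scaled by TMM and tested with edgeR 4.0.16 (R 4.3.3) by the quasi-likelihood F-test, with 1 mean per group over all 15 mice and Benjamini-Hochberg adjustment over 16920 genes. An FDR of 0.1 was the threshold. Standard errors were taken from the fold change and the F statistic. CPM used TMM library sizes, RPKM divided them by exon length, and log2 CPM had 0.5 added. Alternatives were DESeq2 1.42.0, limma 3.58.1 (voom with quality weights), other normalizations and filters, loess offsets for length and GC (span 0.3), fits of only the 2 groups compared, an FDR of 0.05, and leaving out each mouse. Leaving out D9 together with D62, and D9 together with length and GC offsets, was chosen after seeing the data. The scripts were tested on simulated data. The members and lists were chosen with earlier results of these data known. Values in every mouse are given for the 5 members with the smallest p in each of 4 comparisons and for the highest and lowest member per length, and other members, importins, exportins and genes of the lamina were named after their values were seen. Promoter windows came from RefSeq on GRCm38.p6. No list was tested as a set. Results of 1 further list of genes are not reported here.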

Additional observations from a re-analysis of the deposited data

Results flagged for a closer look

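The ratio of the gap to the nearest mouse over the range of the group was compared with the critical value of Dixon's test. In the 3 groups of 4 mice it was above that value in 12 of 90 tests of a member in a group. The nominal rate of about 1 in 20 is no yardstick here. The tests share the same mice, and the share over all tested genes was not taken. Of the 12, 7 were Low Control mouse D9 as the highest. The ratios were 0.933 for Ranbp2 (177 CPM), 0.903 for Tpr (206 CPM), 0.898 for Nup98 (58.0 CPM), 0.880 for Nup54 (16.1 CPM), 0.859 for Nup153 (88.3 CPM), 0.846 for Rae1 (26.5 CPM) and 0.839 for Nup93 (49.7 CPM). In the same group D8 was far below the others in Nup43, at 3.34 CPM with a ratio of 0.898.

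High Run mouse D53 was the lowest of its group by this measure in Nup50 (13.4 CPM, ratio 0.930) and in Nup214 (16.3 CPM, ratio 0.891). In Low Run mice, D61 was the lowest in Seh1l (30.4 CPM, ratio 0.921) and D57 in Ahctf1 (30.9 CPM, ratio 0.856). High Control, with 3 mice, was not tested in this way.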

How the results depend on the processing

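No paired analysis was possible because each mouse belongs to 1 group and the labels share no replicate number between groups. Of 375 recomputed values of named members 371 kept their direction. These members were picked for small p-values in the main fit of the same mice, so their kept direction is no separate support. The exceptions were in High Run against High Control, where Nup35 was -0.031 and Tpr -0.0057 with voom. There Tpr was also -0.024 without D62 (0.237 without D52), and -0.024 without D9 and D62. Counts of all genes past an FDR of 0.1, which were 0 in edgeR in every comparison, were 11 in Low mice, 15 in High mice, 1 for the interaction and 2 between sedentary mice with DESeq2, 45 in High mice with voom, and 86, 19, 4 (interaction) and 6 (High Run against Low Run) with no filter on counts. Members at an unadjusted p under 0.05 in Low mice numbered 7 with upper-quartile scaling, 6 with only the groups compared and 0 with voom. Voom gave 1 in High mice, 3 between sedentary mice and a median of 0.10 for the interaction, and a fit of only the sedentary groups gave 2.

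Leaving out 1 mouse, members at that threshold ran from 0 (without D9) to 14 (without D98) in Low mice, where they were 3 without D57 and 6 without D68. For the interaction they ran from 0 (without D9, D68 or D67) to 9 (without D98), and were 6 without D8, 5 without D61 or D53, and 1 without D57, D25, D49 or D62. Between sedentary mice they ran from 0 (without D9 or D67) to 11 (without D98), and were 2 without D23 or D25. The members' median stayed negative in Low mice (-0.33 to -0.10) and between sedentary mice (-0.28 to -0.11) and positive for the interaction (0.16 to 0.41). Without D9 and D62 the counts were 0, 0 and 0 in these comparisons and the median for the interaction was 0.060. With length and GC offsets and D9 left out the counts were 0, 1 (interaction) and 0, and the medians -0.057, 0.062 and -0.044. The cause of these changes was not tested. With 3 to 4 mice a group, differences of the size of the standard errors given, 0.11 to 0.40 on the log2 scale, were not detectable.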
